A study of Mus musculus with 8 samples.

Results

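Plasmacytoid dendritic cells (pDCs) were examined in single-cell RNA sequencing of mouse spleen. Cells were chosen by their measured UMIs: a cell was counted as a pDC when it had more than 100 detected genes, at most 10% mitochondrial unique molecular identifiers (UMIs, one per captured mRNA molecule), at most 1 UMI of Cd79a and Ms4a1 together, none of Cd3d, Cd3e and Cd3g, at least 2 UMIs of Siglech, and at least 1 of Ccr9, Tcf4 and Bst2 detected. The rule found 170 pDCs among the 42183 cells of the 4 libraries of total splenocytes, out of 83704 cells in the whole series. The control mice carried the Cγ1Cre driver and the Rosa26-YFP LSL reporter. The cKO mice carried both alleles together with floxed Eif3e (Eif3e fl/fl), a subunit of the translation initiation factor eIF3. All mice were 2 months old, live splenocytes were sorted either as total cells or as YFP+ cells, and cells of several mice were pooled in each library. The labels give spleen as the tissue, while the protocol also names lymph nodes. Each group of total cells had 1 library in each of 2 batches that the labels number, so n = 2 for each genotype and a p-value measures the spread between pools. Cγ1Cre is switched on by transcription of the immunoglobulin γ1 constant region in activated B cells, so pDCs are not cells in which the driver is known to act, and the cKO pDCs are pDCs from an animal whose activated B cells were targeted.

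pDCs are rare dendritic cells that sense viral RNA and DNA through endosomal Toll-like receptors 7 and 9 and can release large amounts of type I interferon. Their identity rests on the E protein Tcf4 (E2-2), held in check in conventional dendritic cells (cDCs) by Id2, and they keep a well-developed endoplasmic reticulum for secretion. In the resting mouse spleen they carry the surface receptor Siglec-H, the restriction factor Bst2 and the gut-homing chemokine receptor Ccr9.

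The start regions of 3 genes that set these cells apart are printed here, because E proteins such as Tcf4 bind E-box letters. Of the 4 genes of the rule and the 12 with the largest fold over conventional dendritic cells, 11 were in the RefSeq promoter table, with 14 start sites, and the 250 bases before 8 of these held an E-box. The 3 shown were picked from those after the search: 2 genes of the rule, and Klk1, which had no UMI in the cDCs of any library. Each line holds the 250 bases before a start site of the GRCm38.p6 table, 5′ to 3′ on the gene's strand, with the E-box in capitals. One form searched was CAGGTG, with its reverse complement CACCTG. The other form was CAGCTG, which is its own reverse complement, so both strands were covered.
Siglech, chr7:55767934-55768183, plus strand: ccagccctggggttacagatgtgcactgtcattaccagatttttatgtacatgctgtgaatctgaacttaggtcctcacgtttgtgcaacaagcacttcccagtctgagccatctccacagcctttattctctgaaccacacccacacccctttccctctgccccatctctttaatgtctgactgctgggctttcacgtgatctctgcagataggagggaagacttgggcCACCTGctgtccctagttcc
Ccr9, chr9:123766961-123767210, plus strand: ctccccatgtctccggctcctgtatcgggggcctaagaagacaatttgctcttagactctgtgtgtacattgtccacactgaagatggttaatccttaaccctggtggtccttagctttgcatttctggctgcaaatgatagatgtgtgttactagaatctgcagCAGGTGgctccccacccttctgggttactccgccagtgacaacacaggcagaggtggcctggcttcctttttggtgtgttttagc
Klk1, chr7:44225110-44225359, plus strand: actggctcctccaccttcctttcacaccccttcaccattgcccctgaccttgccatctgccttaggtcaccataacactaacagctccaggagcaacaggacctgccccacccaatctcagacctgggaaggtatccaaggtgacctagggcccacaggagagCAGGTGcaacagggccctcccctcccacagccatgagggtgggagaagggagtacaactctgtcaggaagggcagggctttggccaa
Each of the 3 windows held 1 such E-box, beginning 20 bases before the start site in Siglech, 85 in Ccr9 and 87 in Klk1. Of all 32851 promoters in the table, 27.7% held at least 1 E-box of either form in the same window, so a match is a description of the sequence and says nothing of binding.

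The 4 genes of the rule chose the cells and are given as a description. Levels are in CPM, the summed UMI counts of a class scaled to one common library total. Siglech stood at 1885 and 2014 in the control libraries and at 1842 and 2234 in the cKO libraries. Tcf4 stood at 3686 and 2933 in control and at 2814 and 2983 in cKO, and Bst2 at 2800.5 and 3789.6 in control and 3110.1 and 3859 in cKO. Ccr9 stood at 511 and 417 in control and at 580.3 and 793 in cKO. All 170 cells held Tcf4 UMIs, 169 held Bst2 and 147 held Ccr9. T cells, used for comparison, were the 8289 cells of the same libraries with at least 2 UMIs of Cd3d, Cd3e and Cd3g together and none of Cd79a, Ms4a1 and Siglech. B cells had at least 3 UMIs of Cd79a and Ms4a1 together and none of the Cd3 genes or Siglech, so neither class says anything about Siglech. Bst2 had a UMI in 38.1% and Ccr9 in 12.4% of T cells. Among the B cells of each library, Tcf4 had a UMI in 60.5 to 73.9%, Bst2 in 18.2 to 25.9% and Ccr9 in 0.669 to 1.64%. The pDCs held a median of 10175 to 11649 UMIs per cell in the 4 libraries, against 6136 to 7499.5 in T cells.

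Few cells lay near the edge of the rule. Over the 4 libraries, 9 cells met every other condition with 1 Siglech UMI, 7 pDCs had exactly 2 and 2 had exactly 3. The median pDC held 24 Siglech UMIs in control library 1, 21 in control library 2, 20 in cKO library 1 and 24.5 in cKO library 2, with the highest cell at 42. Of the 170 pDCs, 159 had at least 5 UMIs of Irf8, a transcription factor of the dendritic lineage that the rule did not use. Irf8 is not limited to that lineage, and 76.5 to 85.4% of B cells had a UMI of it. The 11 cells under 5 Irf8 UMIs were spread over the libraries as 3, 3, 4 and 1. Their median was 4 Siglech and 81 H2-Aa UMIs, against 23 and 28 in the other pDCs.

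**Figure D1:**
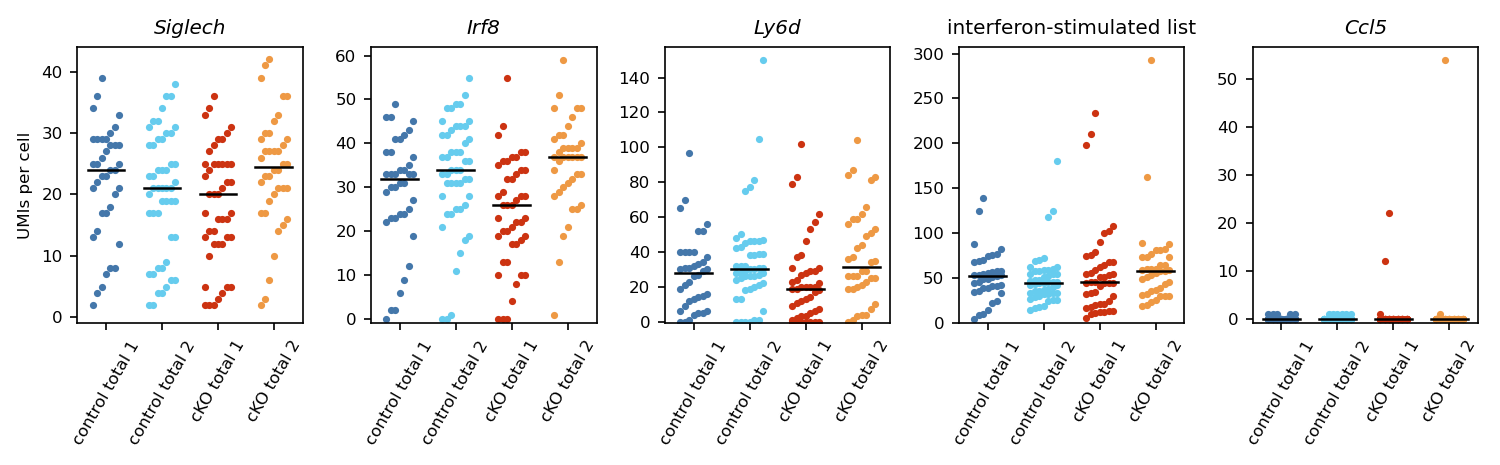
UMIs per cell (vertical axis) of Siglech, Irf8, Ly6d, the summed interferon-stimulated list and Ccl5 in each pDC, by total library, with points for cells and a black bar for the library's median. The libraries share one range for Siglech, Irf8 and Ly6d, whereas Ccl5 lies at 0 or 1 in all but 3 cells, which belong to the cKO libraries.

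Markers of other cell types were checked in the pDC sums. The B cell list summed to 117 to 195 CPM, the T cell list to 58.3 to 76, the NK cell list to 42.6 to 209 and the plasma cell list to 20.6 to 69 CPM, with the highest NK cell and plasma cell values in cKO library 2. The neutrophil and erythroid lists did not exceed 27.1 CPM. The monocyte and macrophage list summed to 829.5 and 672 CPM in the control and cKO libraries of batch 1, and to 251 and 189.6 CPM in those of batch 2. Lyz2, a macrophage lysozyme, held most of that difference, with 449.8 and 444 CPM in batch 1 against 20.6 and 7.39 in batch 2, and in batch 1 the 3 cells with the most Lyz2 held 91.5% and 98% of its UMIs. In all, 11 or 12 pDCs of each library carried at least 2 UMIs of another cell type's markers. For cDCs that count used Xcr1 and Clec4a4 alone, and 0 pDCs reached it. The longer cDC marker list, which holds Clec9a, summed to 1076 to 1430 CPM in pDCs. In the cDCs used for comparison, the monocyte and macrophage list stood at 697, 588, 985 and 2851.5 CPM in control libraries 1 and 2 and cKO libraries 1 and 2, and the cell cycle list at 1619, 874, 1551 and 3442 CPM, so the 25 cDCs of cKO library 2 stood apart on both. Without that library, 2284 genes differed between pDCs and cDCs in place of 2431.

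The first comparison asked whether pDCs made up a different share of the spleen in cKO mice. No difference beyond the spread between libraries was detected. pDCs were 0.397% of cells in control library 1 (38 of 9566 cells, exact 95% binomial interval 0.281 to 0.545%) and 0.424% in control library 2 (49 of 11559, 0.314 to 0.560%). They were 0.430% in cKO library 1 (45 of 10476, 0.313 to 0.574%) and 0.359% in cKO library 2 (38 of 10582, 0.254 to 0.493%). The control libraries lay between the cKO libraries. The means were 0.411% ± 0.0189 (SD, n = 2) in control and 0.394% ± 0.0498 (SD, n = 2) in cKO, and the two-sided exact permutation test gave p = 1, where 0.333 was the smallest p this design allows. With cells thinned to 2000 UMIs, both cKO libraries (0.352% and 0.364%) lay below both control libraries (0.397% and 0.449%), a difference of −0.0648 percentage points with an exact permutation p of 0.333. The thinning was a single random draw, and it also thinned the B and T cell genes that exclude a cell. It left 37 and 51 pDCs in the control libraries and 36 and 38 in the cKO libraries, so control library 2 gained cells. The difference without thinning was 0.0323 percentage points in batch 1, where cKO was higher, and −0.0648 in batch 2, where it was lower. Intervals cover counting error only, and a change in pDC number cannot be told apart from a change in the other cells of the spleen.

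**Figure D2:**
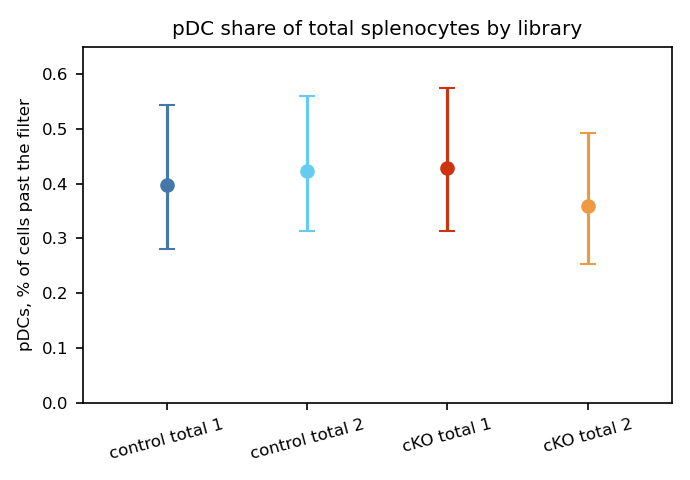
pDCs as a percentage of cells past the filter (vertical axis, from 0) in each of the 4 total libraries, with exact 95% binomial intervals. The 4 libraries lie between 0.359% and 0.430%, and every interval overlaps every other.

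The second comparison set the pDCs beside the cDCs of the same libraries, to describe what these cells share beyond the rule. cDCs were taken as cells with no Siglech UMI, at least 2 UMIs of Flt3 and Zbtb46 together, at least 1 of Itgax and the same limits on B and T cell genes. There were 208 of them (69 and 39 in control, 75 and 25 in cKO). Genes used by either rule were left out of all calls. With edgeR's quasi-likelihood test, the library as a block and Benjamini-Hochberg adjustment at 0.05, 1157 of 6112 genes were higher in pDCs (18.9%) and 1274 were lower (20.8%). The median log2 fold change over all genes tested was −0.0047. These shares over all genes are the background for the counts of list members that follow.

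Most transcription factors of the pDC program were higher in pDCs. Of the 18 listed genes, 17 were tested, 12 were higher and 4 were lower in pDCs, with a median log2 fold change of 1.39. The list also holds Mtss1, which is not a transcription factor. Runx2, a Runt-domain factor needed for pDCs to leave the bone marrow, stood at 1858, 1447, 1546 and 1283 CPM in the pDCs of control libraries 1 and 2 and cKO libraries 1 and 2, in that order, against 42 to 219 CPM in cDCs, a log2 fold change of 3.42 ± 0.27 (SE, edgeR adjusted p = 2.06e-04). Irf8 stood at 2493, 3311, 2442 and 3303 CPM in pDCs and at 413 to 624 in cDCs (log2 fold change 2.33 ± 0.13 SE, edgeR adjusted p = 1.2e-07). All 4 pDC values lay above all 4 cDC values for both genes. Spib, an Ets factor of B cells and pDCs, rose by 3.03 ± 0.25 on the log2 scale. Bcl11a, a zinc finger factor needed for pDC development, rose by 1.34 ± 0.11, and Zeb2, a repressor that favours pDCs over the Id2-high lineage, by 1.48 ± 0.16.

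Id2, which blocks E proteins, showed the opposite pattern. It stood at 20.3, 10.3, 24.6 and 19.7 CPM in pDCs and at 564 to 674 CPM in cDCs, a log2 fold change of −4.94 ± 0.20 (SE, edgeR adjusted p = 6.49e-12). The other factors that fell were Runx3, Cbfa2t3 and Etv6, the last with a log2 fold change of only −0.41. Irf4 had a log2 fold change of 0.32 and did not pass the test. Irf7, the interferon regulatory factor that drives type I interferon genes, rose by 1.70 ± 0.19 on the log2 scale.

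The list of pDC surface and effector genes was mostly higher in pDCs. Of 33 tested members, 29 were higher and 1, the phosphatase Ptprc (CD45), was lower, and the median log2 fold change was 3.70. That median was the same with the 4 members at 0 in cDCs set to their bound. Cox6a2, a cytochrome c oxidase subunit better known from muscle, stood at 834, 783, 612 and 975 CPM in pDCs and had no UMI in cDCs, which made it at least 685-fold higher against a floor of 3 UMIs over the summed cDC counts. On the same floor Klk1, a kallikrein serine protease, was at least 359-fold higher, and Dntt, the template-independent DNA polymerase of lymphoid progenitors, at least 138-fold higher. Klk1 was detected in 122 of 170 pDCs and in 4 of 8289 T cells, and Cox6a2 in 136 pDCs and 24 T cells. Reads of Klk1 and its close paralogs, such as Klk1b27, may be split between them.

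Ly6d, a surface protein that marks lymphoid-primed progenitors, stood at 2398, 3440.2, 2330.3 and 3544 CPM in pDCs and at 15.3 to 38.7 CPM in cDCs, a log2 fold change of 6.38 ± 0.23 (SE, edgeR adjusted p = 6.01e-07). It is also a B cell gene, found in 93 to 97.9% of B cells of these libraries, and in pDCs the share of cells with a UMI ranged from 84.4 to 97.4%. Ly6c2 rose by 5.53 ± 0.21 on the log2 scale, although Ly6c2 and its near-identical neighbour Ly6c1 may share reads. The collagen receptor Lair1 and the inhibitory receptor Lag3 rose by 3.13 and 3.23. Cd4 rose by 1.89, while Cd8a, at 24.9 to 116 CPM, had a log2 fold change of 0.10 ± 0.76 (SE) and did not pass the test.

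The largest folds outside both rules, among genes that passed the test in the same direction in 4 of 4 libraries and reached 100 CPM, went beyond the classical markers. Grm8, a metabotropic glutamate receptor, stood at 1530.2, 834, 1102 and 754 CPM in pDCs and had no UMI in cDCs, at least 908-fold higher. The unannotated gene Gm21762 was at least 520-fold higher (380 to 941 CPM against 0 UMIs). Mctp2, a calcium-binding membrane protein, was at 828 to 1501 CPM in pDCs and at 1.18 to 5.23 CPM in cDCs. The sodium pump subunit Atp1b1, the kinase Prkca, the lysosomal protease Ctsl and the endocytic adaptor Pacsin1 had log2 fold changes of 6.21, 5.98, 5.91 and 5.83. Grm8 was detected in 150 of 170 pDCs and in 15 of 8289 T cells.

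**Figure D3:**
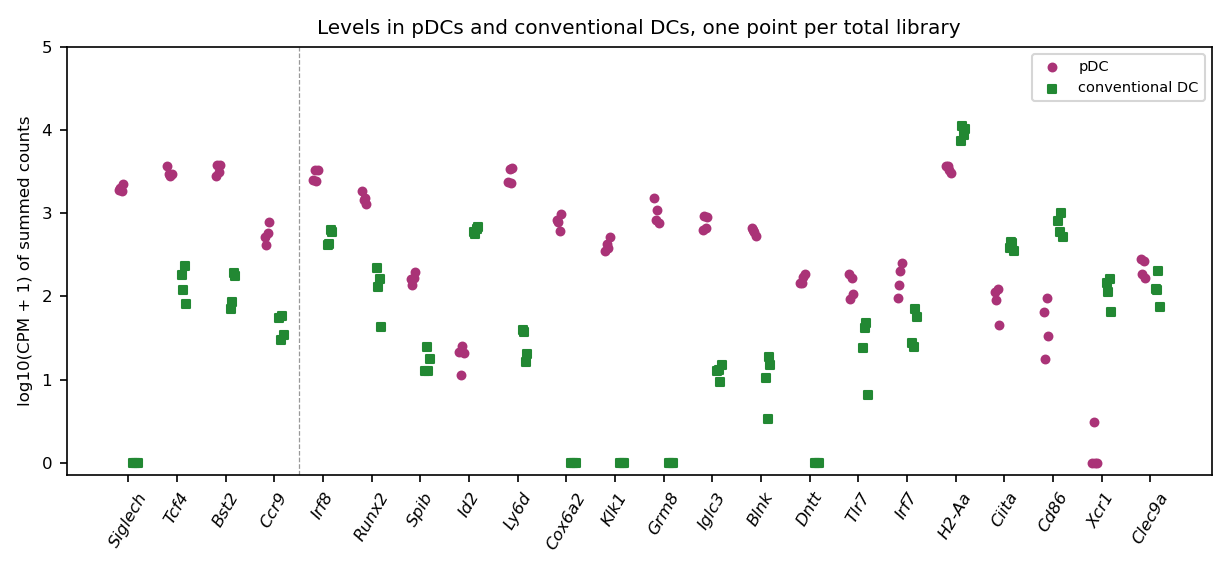
Levels of 22 genes as log10 of CPM plus 1 (vertical axis) in pDCs (circles) and cDCs (squares), one point per total library, with the 4 genes of the rule left of the dashed line. Cox6a2, Klk1, Grm8 and Dntt lie at 0 in the cDCs of all libraries, and Id2, H2-Aa, Ciita, Cd86 and Xcr1 lie higher in cDCs than in pDCs.

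Genes that cDCs held at higher levels included Adgrl3, an adhesion receptor, at 305 to 1070.0 CPM in cDCs against 2.46 to 40.7 in pDCs (log2 fold change −5.38 ± 0.27 SE, edgeR adjusted p = 2.89e-09). H2-M2, a nonclassical MHC class I gene, had no UMI in pDCs, at least 69.7-fold lower. Xcr1, the chemokine receptor of cross-presenting cDCs, had a single UMI in all 170 pDCs, against 64.4 to 161 CPM in cDCs. The apoptosis inhibitors Bcl2a1b and Bcl2a1d, whose reads may be split among near-identical copies, had log2 fold changes of −5.18 and −4.63. In pDCs Bcl2a1b stood at 38.4 and 62.7 CPM in batch 1 against 4.11 and 0 in batch 2, the batch in which the macrophage list was low. The remaining genes of this kind were Chn2, Apol7c, 9530059O14Rik, Pclaf, Ffar2 and Sirpb1a, with log2 fold changes of −4.66 to −4.97. H2-M2 lost its call without the library as a replicate block (edgeR adjusted p = 0.069), and Apol7c with no filter on low counts (0.0673). Bcl2a1b lost it with no filter (0.0653), without control library 1 (0.0868) and without cKO library 1 (0.0559), and Bcl2a1d with no filter (0.0504) and without cKO library 1 (0.0535).

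B-lineage genes were present in part. Of 12 tested genes of a list that excluded Cd79a and Ms4a1, 7 were higher and 1 was lower in pDCs, with a median of 1.31. Iglc3, a constant region of the immunoglobulin λ light chain, stood at 631, 935, 657 and 909 CPM in pDCs and at 8.24 to 14 CPM in cDCs (log2 fold change 5.53 ± 0.18 SE, edgeR adjusted p = 5.02e-13). It was detected in 84.7% of pDCs, 92.6 to 95.4% of B cells and 7.71% of T cells. The part of free RNA or of doublets in these shares was not tested. Blnk, the adaptor of the B cell receptor pathway, stood at 539 to 667 CPM in pDCs and at 2.39 to 17.7 in cDCs. In contrast, the B cell commitment factor Pax5 stood at 6.72 to 14.4 CPM in pDCs and Ebf1 at 13.6 to 37 CPM. Ighm and Igkc did not pass the test. They were at 524 to 842 and 217 to 606 CPM in pDCs, and at 1078 and 948 CPM in the cDCs of control library 1 alone, against 129 to 239 and 139 to 257 in the other cDCs. Reads of Iglc3 and Iglc2 may be split between these similar segments.

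Secretory pathway genes were mostly higher in pDCs. Of 32 tested members, 17 were higher and 2 were lower, with a median log2 fold change of 0.48. Spcs2, a subunit of the signal peptidase, stood at 233, 339, 325 and 337 CPM in pDCs and at 87.9 to 137 in cDCs (log2 fold change 1.36 ± 0.15 SE, edgeR adjusted p = 7.39e-07). The translocon subunit Sec61a1 rose by 1.08, the disulfide isomerase Txndc5 by 1.51 and Xbp1, the transcription factor of the unfolded protein response, by 1.70. The 2 that fell were Sdf2l1 and Sel1l, both acting in endoplasmic reticulum quality control.

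Nucleic acid sensing genes differed in both directions. Of 19 tested genes, 6 were higher and 6 were lower in pDCs, and the median was 0.10. Over all genes tested, 18.9% were higher and 20.8% were lower. Tlr7, the endosomal receptor for single-stranded RNA, stood at 188, 92.5, 166 and 106 CPM in pDCs and at 5.6 to 47.1 CPM in cDCs (log2 fold change 2.03 ± 0.33 SE, edgeR adjusted p = 4.07e-04). Unc93b1, which carries these receptors to endosomes, rose by 0.70, Slc15a4, an endolysosomal transporter needed for their signal, by 0.79, and the chaperone Hsp90b1 by 1.07. Tlr9, the DNA receptor, was too low to test, with 13 of 170 pDCs holding a UMI. Among the genes that fell, Tlr3, the receptor for double-stranded RNA, had no UMI in pDCs and 25.2 to 68.3 CPM in cDCs, at least 27.8-fold lower. The cytosolic RNA sensors Ifih1 and Ddx58 had log2 fold changes of −1.19 and −2.17.

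No interferon transcript was detectable beyond single UMIs. Across 20 type I and type III interferon genes the pDCs of the control libraries held 0 UMIs, those of cKO library 2 held 0, and those of cKO library 1 held 2, 1 of Ifnk and 1 of Ifnl2. For a gene at 0, 3 UMIs of the 1781346 summed over all pDCs allow up to 1.68 CPM. The receptor genes Ifnar1 and Ifnar2 were each 1.79 higher than in cDCs on the log2 scale, and Ifngr1, of the type II receptor, fell by 3.33.

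Genes of antigen presentation were lower in pDCs. Of the 13 genes of MHC class II presentation, all tested, 12 fell, with a median log2 fold change of −1.59. H2-Aa, an MHC class II chain, stood at 3738, 3716, 3343 and 3061 CPM in pDCs and at 7328 to 11151 in cDCs (log2 fold change −1.59 ± 0.17 SE, edgeR adjusted p = 0.0037). Ciita, the class II transactivator, and the invariant chain Cd74 had log2 fold changes of −2.27 and −1.33. The exception was the protease Ctss, at 804 to 1139 CPM in pDCs and 794 to 1231 CPM in cDCs. All 6 tested costimulatory and coinhibitory genes fell, among them Cd80 and Cd86, the ligands of CD28, with log2 fold changes of −4.28 and −3.97.

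Some genes commonly used to mark cDC subsets were higher in pDCs. Clec9a, a receptor for dead cells and a marker of cross-presenting cDCs, stood at 283, 187, 269 and 167 CPM in pDCs and at 120.4, 119, 200.2 and 72.8 CPM in the cDCs of the same libraries (log2 fold change 0.68 ± 0.17 SE, edgeR adjusted p = 0.00325). It was higher in pDCs in 4 of 4 libraries, but the ranges of the classes overlapped. It was detected in 72.9% of pDCs and 0.157% of T cells. The lectins Cd209a and Clec10a rose by 1.55 ± 0.26 and 3.67 ± 0.27, with Cd209a ranging from 121 CPM in cKO library 2 to 506 CPM in control library 2. Of the whole cDC marker list, 13 genes were tested, 3 were higher and 9 were lower. Over all genes tested, 18.9% were higher and 20.8% were lower, so the list leaned to the lower side.

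Of 9 tested cytokines and chemokines 1, Ccl4, was higher in pDCs and 3 were lower, with a median log2 fold change of −1.68. Over all genes tested, 18.9% were higher and 20.8% were lower, the background for each list of this paragraph. Ccl4, an inflammatory chemokine, stood at 985, 826, 746 and 1662 CPM in pDCs and at 116 to 234 in cDCs (log2 fold change 2.41 ± 0.46 SE, edgeR adjusted p = 0.0223). Its UMIs were uneven among cells, from 0 to 99, and the 3 richest cells of each library held 30.2 to 47.9% of them. Of 11 tested chemokine and positioning receptors 5 were higher and 2 were lower. Cxcr3, a receptor which draws cells to inflamed tissue, rose by 2.51, and the lymph node homing receptor Ccr7 fell by 2.75. Of 10 tested growth and survival genes 3 were higher and 5 were lower. Il7r rose by 3.59 and Csf2rb2 by 2.69, and Kit, the receptor for stem cell factor, fell by 3.09.

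Cell cycle and immediate early genes were lower in pDCs than in cDCs. All 5 tested cell cycle genes fell, such as Stmn1, a microtubule regulator, at 13.4 to 19.7 CPM against 88.4 to 428 in cDCs. Mki67 had 14 UMIs in all pDCs together, split as 8, 1, 1 and 4. Of 14 tested immediate early genes, which tissue dissociation can also induce, 12 fell, such as the AP-1 member Junb, with a log2 fold change of −1.68. The summed immediate early list stood at 3767 to 5705 CPM in pDCs and at 10324 to 13612 in cDCs, but at 2770.5 to 4859 in T cells and 3417 to 4599 in B cells, and Fos had a UMI in 97.1% of pDCs and 53.3% of T cells. Of 13 tested eIF3 subunits 12 had a log2 fold change below 0 and 1 was called, Eif3k, with a log2 fold change of −0.45. Of all genes tested, 20.8% were called lower. The median of the eIF3 subunits was −0.25.

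**Figure D4:**
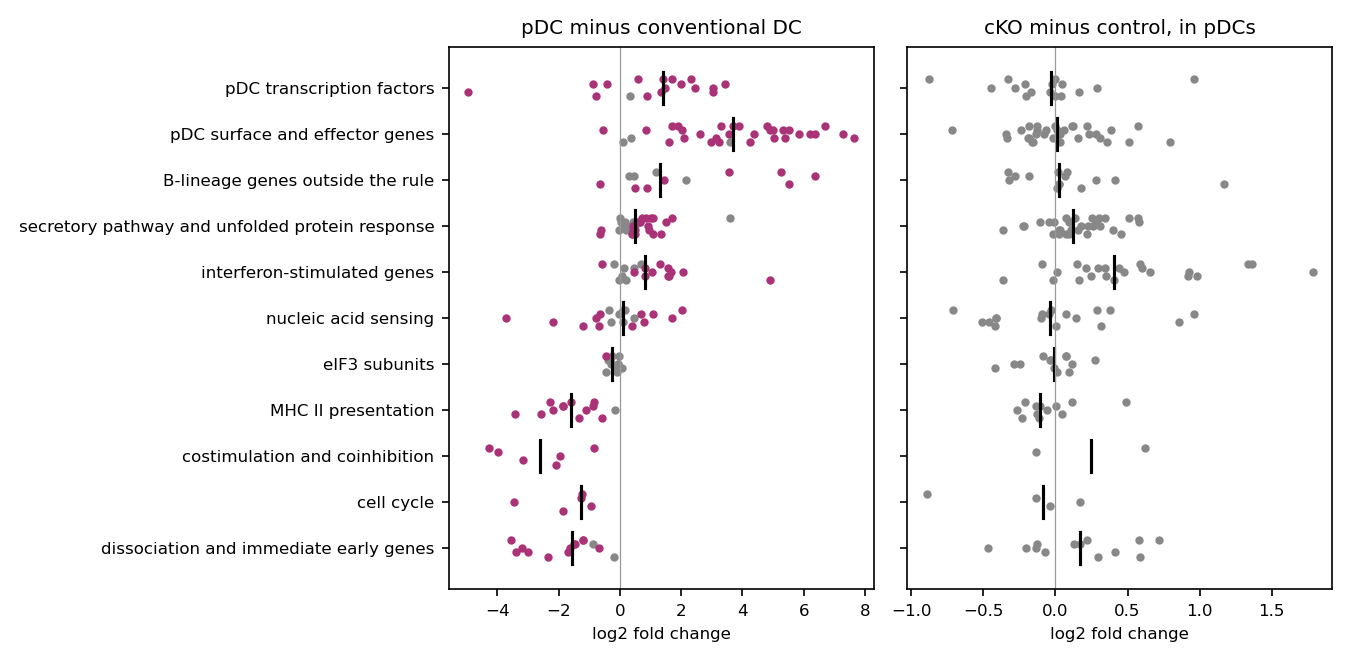
Log2 fold change (horizontal axis) of each tested gene of 11 lists, pDC minus cDC on the left and cKO minus control in pDCs on the right, with grey points for genes that did not pass the edgeR test, coloured points for those that did and black bars for the list medians. On the left the pDC surface list has its median at 3.70 and the MHC class II list at −1.59, and on the right no gene of these lists passed.

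The third comparison asked which genes differed between cKO and control inside the pDCs. Of 6295 genes tested outside the rule, 1 was called higher in cKO (0.0159%) and 0 were called lower, with 161 at an unadjusted p under 0.05 (2.56%), 87 of them higher (1.38%). DESeq2 also called 1. That gene was Ccl5, a chemokine of T cells, NK cells and activated dendritic cells. It stood at 11.3 and 12.3 CPM in the control libraries and at 78.4 and 135 CPM in the cKO libraries, a log2 fold change of 2.78 ± 0.47 (SE, edgeR adjusted p = 0.00896). The groups did not overlap, with means of 11.8 ± 0.728 (SD, n = 2) and 107 ± 40.3 (SD, n = 2). Leaving out 1 library raised the number of called genes to 17 without control library 1, 10 without control library 2, 8 without cKO library 1 and 10 without cKO library 2, each with the lone library assumed to vary like the others.

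The Ccl5 difference rested on few cells. Of 90 Ccl5 UMIs in the 83 cKO pDCs, 88 were in 3 cells, whereas the 11 UMIs of the control pDCs were in 11 cells. The first of the 3 cells, in cKO library 1, held 22 Ccl5 UMIs with 16 of Siglech, 36 of Irf8, 0 of Itgax and 3 of Zbtb46, the last 2 being genes of the cDC rule. The second, in the same library, held 12 Ccl5 UMIs with 2 of Siglech, 0 of Irf8, 132 of H2-Aa, 4 of Itgax and 2 of Zbtb46. The third, in cKO library 2, held 54 Ccl5 UMIs with 2 of Siglech, 1 of Irf8, 39 of the granzyme Gzma, 7 of the NK receptor Ncr1, 202 of H2-Aa and 2 of Itgax. The first cell had 22 H2-Aa UMIs, and the pDCs with at least 5 Irf8 UMIs had a median of 28. In cDCs Ccl5 stood at 252 to 328 CPM. When pDCs needed 3 Siglech UMIs, or when cells showing markers of another cell type were left out, no gene was called.

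The genes next in rank among those with at least 1 log2 unit and no overlap between the groups were not called. On the higher side Socs3, which curbs cytokine signaling, was at 13.6 and 18.5 CPM in control and at 78.4 and 78.8 in cKO (log2 fold change 2.02 ± 0.44 SE, edgeR adjusted p = 0.121). It was called with no filter on low counts (edgeR adjusted p = 0.0038) and when any 1 of the 4 libraries was left out (0.0216 to 0.0489). Spsb1, Slfn5 and Tmem108 followed, with log2 fold changes of 2.16, 1.33 and 2.19, and all 3 were called with no filter (0.00607, 0.0378 and 0.0175), Spsb1 also without control library 1 and Slfn5 without control library 2. On the lower side stood Bank1, Uty, Cd24a, Acvr2a and Kif16b, with log2 fold changes of −1.67, −1.19, −1.14, −1.12 and −1.34. Bank1, a B cell adaptor, was at 63.3 and 24.7 CPM in control and at 11.2 and 9.85 CPM in cKO, and it was called without control library 2 (edgeR adjusted p = 0.0201). Over all genes tested, 12.5% had both cKO libraries above both controls and 14.9% had both below, so the absence of overlap is common here. Uty is on the Y chromosome, and the pDCs of cKO library 1 held 909.7 CPM of the female-specific transcript Xist with 60.5 CPM of the Y-linked gene Ddx3y, against 0 CPM of Xist and 127 to 158 CPM of Ddx3y in the other 3 libraries. That library therefore held both kinds of transcript, and the part of sex in any difference was not tested.

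Interferon-stimulated genes were measured as a list. Of 23 tested members 20 had a log2 fold change above 0, against 50.3% of all genes tested, 10 had both cKO libraries above both controls (12.5% of all genes tested did), 1 had both below (14.9% of all), and none passed the test. The median log2 fold change was 0.41, beside 0.0014 for all genes. It was 0.69 without control library 2, 0.63 without cKO library 2, 0.24 without cKO library 1, 0.25 without cells showing markers of another cell type and 0.20 with Cd79a and Ms4a1 at 0. The summed list stood at 4471 and 4885 CPM in the control libraries and at 5687 and 5805 in the cKO libraries. A higher sum in cKO was not particular to pDCs. In T cells the list stood at 2054 and 2145 CPM in control and at 2747 and 3178 in cKO. In cDCs it stood at 1755 and 1672.5 CPM in control and at 2308 and 1757 in cKO. B cells went the other way, at 2718 and 2783 CPM in control and at 2622 and 2575 in cKO. Isg15, a ubiquitin-like antiviral protein, was at 22.6 and 88.4 CPM in control and at 146 and 153 in cKO (log2 fold change 1.36 ± 0.43 SE) and did not pass the edgeR test. With no filter on low counts, Isg15 and the list members Oasl2 and Slfn5 were called. A UMI of Isg15 was present in 18.8% of pDCs and in 18.8% of T cells. The abundant member Ly6e was level at 1568 to 1626 CPM. Irf7 was counted with the transcription factors and the nucleic acid sensing genes, and not in this list. It was at 94.9 and 136 CPM in control and at 204 and 251 in cKO, and it did not pass the test (log2 fold change 0.96 ± 0.31 SE, edgeR adjusted p = 0.9999, and 0.156 with the batch as a replicate block).

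The list's UMIs were uneven among cells and batches. The 2 cells with the most held 13.3 and 12.8% of the list's UMIs in the control libraries and 17.5 and 19.3% in the cKO libraries. Without those 2 cells in each library, a setting chosen after seeing the data, the summed list stood at 4128 and 4471 CPM in control and 4952 and 4967 in cKO. On the log2 scale with 5 CPM added, the median of the 23 genes was 0.39 with all cells and 0.28 without the 2 cells, and with all cells it was 0.57 in batch 1 and 0.077 in batch 2, with 21 and 14 genes higher in cKO. The B, T and neutrophil marker sums given above were not higher in both cKO libraries than in both controls, whereas the plasma cell sum was. The summed dissociation and immediate early list, at 5052 and 3767 CPM in control and 5705 and 5162 in cKO, was also higher in both cKO libraries, with 4 of its 13 tested genes non-overlapping higher (12.5% of all genes tested), none lower (14.9% of all) and a median log2 fold change of 0.17. The part of either in the interferon-stimulated values was not tested.

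**Figure D5:**
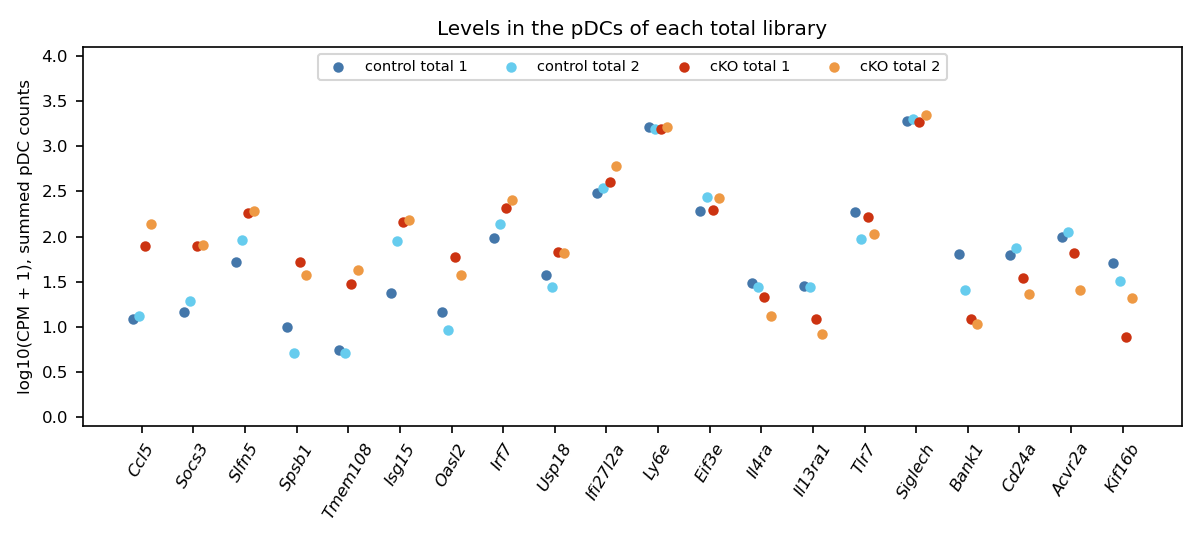
Levels of 20 genes in the summed pDC counts as log10 of CPM plus 1 (vertical axis), one point per total library, coloured by library. Ccl5 lies at 11.3 and 12.3 CPM in control and 78.4 and 135 CPM in cKO, while Eif3e, Ly6e and Siglech overlap between the genotypes.

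Eif3e itself was level in pDCs. It stood at 192 and 271 CPM in control (232 ± 56, SD, n = 2) and at 197 and 266 CPM in cKO (232 ± 48.7, SD, n = 2), a log2 fold change of 0.01 ± 0.30 (SE). These are counts near the 3′ end of the transcript and the floxed part of the gene was not used here, so they do not check recombination. The other eIF3 subunits had 6 of 13 tested members, Eif3e included, above 0 with a median of −0.01, and none was called.

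Of the members of the remaining lists, Ccl5 alone passed the test. The median log2 fold change was −0.03 for the pDC transcription factors, 0.01 for the surface and effector genes, −0.04 for nucleic acid sensing, −0.11 for MHC class II presentation and 0.12 for the secretory pathway. Tlr7 had a log2 fold change of −0.03 ± 0.36 (SE) and Irf8 of −0.00 ± 0.24 (SE). In the secretory list 25 of 32 tested members were above 0, while 50.3% of all genes tested were. For the IL-4 receptor axis, all 6 tested members had values below 0, with a median of −0.51. The summed list stood at 445 and 808 CPM in control and at 479.5 and 404 CPM in cKO, so cKO was higher in batch 1, and Cd209a held 246 of the 393 UMIs of control library 2. Il13ra1, a receptor chain for IL-13 and IL-4, was at 27.1 and 26.7 CPM in control and at 11.2 and 7.39 CPM in cKO on 12, 13, 5 and 3 UMIs. Il4ra stood at 29.4 and 26.7 CPM in control and at 20.2 and 12.3 CPM in cKO, and was detected in 18.8% of pDCs against 37.8% of T cells.

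A list of 8 genes raised in resting B cells of the cKO mice, taken from earlier results of these data, was followed into the pDCs. Of its 5 tested members 3 were above 0, with a median of 0.03, and none was called. Lifr, the receptor of leukemia inhibitory factor, stood at 384 and 245 CPM in control and 305 and 359.6 CPM in cKO, against 2.39 to 35.3 CPM in cDCs.

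The last comparison tested whether the genotype difference in pDCs departed from that in cDCs, by the class-by-genotype term. Of 7148 genes tested 0 were called (0%), by edgeR and by DESeq2, and 318 had an unadjusted edgeR p under 0.05 (4.45%). Ccl5 had the term at 2.89 ± 0.48 (SE, edgeR adjusted p = 0.16), since its cDC levels were 328 and 256 CPM in control and 299 and 252 CPM in cKO. With the batch in place of the library as the block, Ccl5 alone was called. Leaving out 1 library gave 16 calls without control library 1, 6 without control library 2, 5 without cKO library 1 and 2 without cKO library 2.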

How the data were processed

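The deposited matrices hold UMI counts per gene and cell, as the authors made them from 3′ droplet libraries of spleen cells; the submitters' processing notes name GRCm38 (mm10), and the sources used here do not name an aligner. The study filtered and merged cells in Seurat, and the deposited matrices still hold barcodes outside its limits. Here, barcodes were kept above 100 detected genes if mitochondrial transcripts made up no more than 10% (16 to 28 barcodes removed per total library), which left 9566 to 11559 cells per total library. Before this filter, the total libraries held 71894780 to 88513929 UMIs each. No doublet caller was run. Any pair of the 8 libraries shared 51 to 102 cell barcodes, and no barcode was shared between pDCs.

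Counts were summed over the pDCs of each library (406023 to 486600 UMIs) and over the cDCs (357356 to 955113), and tested with edgeR 4.0.16 (quasi-likelihood F test, TMM, filterByExpr, robust, Benjamini-Hochberg over all genes tested, threshold 0.05). Fold changes used a prior count of 2. The SE came from the test's own log2 fold change, its size divided by the root of the F value. It is therefore not the SE of the printed fold change itself. DESeq2 1.42.0 was an alternative, with others on thresholds, filters and libraries. The scripts were tested on simulated data. Shares were compared by an exact permutation test. The batch number of the labels pairs the libraries: the deviations of control and cKO pools from their group means correlated at 0.353 over 6299 genes, a single value, since with 2 libraries per group the deviations of one batch mirror those of the other.

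The named genes between genotypes were those called or, with fewer than 5 called in a direction, the 5 with the smallest p of at least 1 log2 unit without overlap; against cDCs, the 12 largest folds per direction among called genes of at least 100 CPM with 4 of 4 libraries agreeing. Genes of the lists may be named as well. Some lists share genes, so their counts are not separate. The members and lists were chosen with earlier results of these data known. Of the planned cDC markers, only Xcr1 and Clec4a4 were used to find cells with markers of another cell type. Clec9a and Cd209a were dropped after their values were seen, since most pDCs carry them. Zbtb46, Itgae and Batf3 were not used either, so a cell with UMIs of these alone was not left out. RefSeq promoters came from a GRCm38.p6 table.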

Additional observations from a re-analysis of the deposited data

How the results depend on the processing

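The mean of the within-batch differences in pDC share (−0.0162 percentage points) equals the main difference by arithmetic, so the batch block could not change the direction. The share kept its direction, slightly lower in cKO, with cells thinned to 2000 UMIs (−0.0648 percentage points) and under the other settings except 3. The difference in percentage points turned positive with cells carrying neither a B nor a T marker as the denominator (2.11), with Cd79a and Ms4a1 at 0 (0.0105) and without cKO library 2. Leaving out 1 library gave −0.0515 to 0.019. No setting passed the test, which the design does not allow. Between genotypes in pDCs, 17 genes were called with no filter on low counts, 0 with at least 3 Siglech UMIs and 0 without cells showing markers of another cell type. Leaving out 1 library gave 8 to 17 calls, and the replicate block kept 1 call (403 genes at an unadjusted p under 0.05). Against cDCs, 2431 genes were called, and 1703 to 3331 under the alternatives, each within 1.5 times. For the class-by-genotype term, 22 genes were called with no filter, 1 with the replicate block in place of the library block, and 2 to 16 with 1 library left out. The causes were not tested. Among the genes named by rank, no direction changed under any alternative in which the gene was tested; 7 of their values against cDCs lost the call (H2-M2, Bcl2a1b, Apol7c and Bcl2a1d) and 11 between genotypes gained it. With all libraries kept, Ccl5 was called wherever it was tested, at an edgeR or DESeq2 adjusted p of 2.23e-07 to 0.0247. With 1 library left out, its log2 fold change was 2.36 to 3.12. These settings drew on the same pDCs or a part of them, so the calls are not separate support. Under the main rule, 88 of the 90 Ccl5 UMIs of cKO pDCs were in 3 cells. Ccl5 was filtered out as too low in the 2 settings with 0 calls. Of these, the limit of 3 Siglech UMIs left out the cells with 54 and 12 Ccl5 UMIs, which each held 2 of Siglech. The interferon-stimulated list had a median of 0.198 to 0.69 over the alternatives.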

Other observations

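The YFP+ libraries, which were sorted for cells in which Cre had acted, held few cells that met the pDC rule. There were 5 of 10133 cells in cKO YFP+ library 1 (0.0493%, exact 95% binomial interval 0.016 to 0.115%), 2 of 10460 in cKO YFP+ library 2 (0.0191%, 0.00232 to 0.0691%), 3 of 9276 in control YFP+ library 1 (0.0323%, 0.00667 to 0.0945%) and 0 of 11652 in control YFP+ library 2, which allows a share of up to 0.0257% by a limit of 3 counts and up to 0.0317% by the exact interval. All of these shares lay under those of the 4 total libraries. The 2 cells of cKO YFP+ library 2 together held 1128 UMIs of the macrophage gene Lyz2 beside 68 of Siglech, and the cells of the other YFP+ libraries held none of Lyz2.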
